A study of Homo sapiens with 8 samples.

Results

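The mitochondrial protein import machinery was examined through the genes of the TOM, TIM and SAM complexes and the factors that act with them. Members were chosen by symbol, as coding genes named TIMM or TOMM with a digit, together with CHCHD4, GFER, SAMM50, MTX1, MTX2, PMPCA, PMPCB, PAM16, GRPEL1, GRPEL2, HSCB, TIMMDC1 and OXA1L. Of 19964 genes with a coding transcript, 37 carried such a symbol, and 34 of these had a mean of at least 10 counts in both ribo-seq and mRNA-seq. The 3 that did not are PAM16, TIMM23B and TOMM20L. Of the 37, 7 have several coding transcripts in the deposited counts, and each gene is represented by the transcript whose CDS held the most footprints summed over the control libraries.

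Nearly all mitochondrial proteins are encoded in the nucleus, made on cytosolic ribosomes and imported afterwards. The TOM complex receives precursors at the outer membrane, the SAM complex inserts beta-barrel proteins there, small TIM chaperones carry hydrophobic precursors across the intermembrane space, and the TIM22 and TIM23 complexes pass proteins into or through the inner membrane. A motor built around the chaperone HSPA9 then pulls precursors into the matrix, where the processing peptidase removes their presequence. Import depends on the supply of new precursors, and translation of most mRNAs falls when eIF2 is phosphorylated.

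Cells of HEK293T, an established human embryonic kidney line, received 40 µM sodium arsenite, which causes oxidative stress and eIF2 phosphorylation, or vehicle, for 30 min, and each sample came from a pair of dishes. Each treatment was profiled by ribo-seq, which reads the mRNA fragments covered by ribosomes, and by mRNA-seq of the same lysates, in 2 biological replicates, which gave 8 libraries. The cells were not treated with cycloheximide before harvest, and the replicates were made with different 3′ adapters and sequenced differently, so that each change was estimated within replicates. On the transcripts used, ribo-seq libraries held 1023935 to 7270196 reads and mRNA-seq libraries 3993293 to 21724945, and in each assay both libraries of replicate 1 were shallower than those of replicate 2. The 6 genes listed as expressed in HEK293T (VIM, KRT8, KRT18, NEFL, NEFM and LIN28B) were detected in all mRNA-seq libraries, at 540 to 779 CPM (counts scaled to library size) in sum. Among them VIM was highest, with 1074 to 9008 reads in a library, and KRT8 lowest, with 42 to 159. Of 7 markers of other cell types, CD3E and HBB had no read, PTPRC, ALB, COL3A1 and PECAM1 had at most 22 reads in a library, and COL1A1 had 44 to 266. Their summed level was 12.8 to 14.5 CPM in all 4 libraries.

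Translation efficiency (TE) was the ribo-seq count over the CDS relative to the mRNA-seq count of the transcript. Its change under arsenite was the treatment by assay term of edgeR's quasi-likelihood test over the 8 libraries, with Benjamini-Hochberg adjustment over all genes tested and a threshold of 0.05. TMM scaling sets the bulk of mRNAs near 0, so the values are relative to the other mRNAs and do not contain the global decrease of translation. ATF4, PPP1R15A and ATF5, which are known to resist eIF2 phosphorylation, rose in TE by 2.28, 2.94 and 2.74 on the log2 scale (edgeR adjusted p = 0.0112, 0.00478 and 0.00765). The libraries are from bulk lysates, so that fewer translating cells and fewer ribosomes per cell cannot be told apart.

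Under arsenite, the TE changes of import genes were centred near those of all mRNAs. Of 34 members tested for TE, 1 rose, the nucleotide exchange factor GRPEL2, and 0 fell, while across all 10273 genes tested 2.00% passed the threshold (102 genes or 0.993% higher and 103 genes or 1.00% lower). At an unadjusted p under 0.05 there were 8 members, where 21.1% of all genes tested were, and DESeq2 called 0 members at its adjusted threshold and 5 unadjusted, where 8.95% of all genes were. The median log2 TE change of the members was 0.08, with values from -0.82 for TIMM9 to 1.07 for TOMM20, and the median over all genes tested was -0.01. Both replicates were positive in 15 members and negative in 7, and the replicates had opposite signs in 12. In replicate 1 the median was 0.02 and in replicate 2 it was 0.13, so that the distance from 0 was no larger than the difference between the replicates. Mitochondrial ribosomal proteins had a median of 0.12 over 75 genes with 1 higher and 1 lower, and nuclear-encoded respiratory chain subunits a median of 0.02 over 78 genes with 1 higher and 0 lower.

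**Figure D1:**
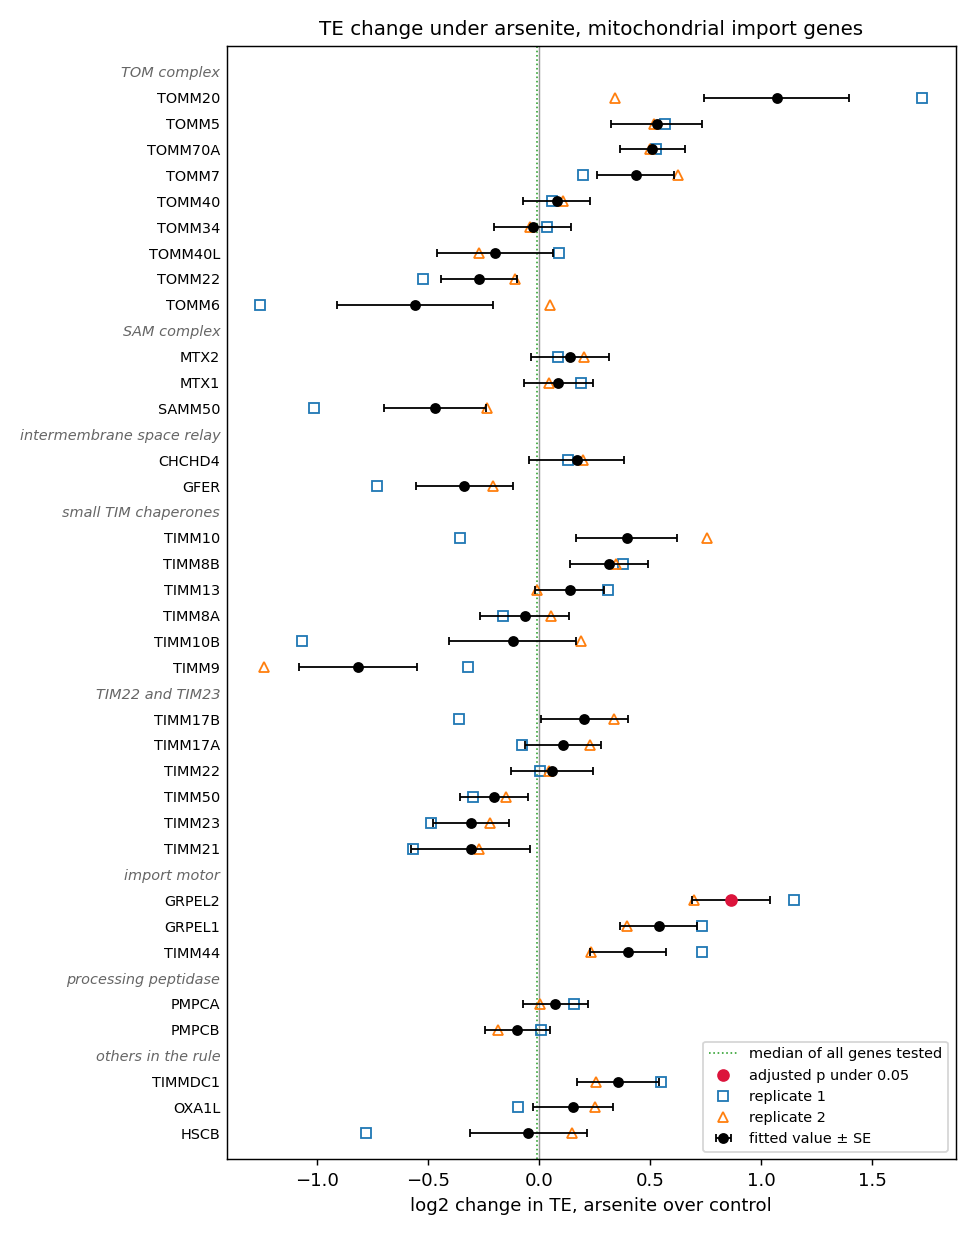
Log2 TE change (arsenite over control, x axis) of the 34 import genes, grouped by role, with the fitted value ± SE as filled points, replicate 1 as squares, replicate 2 as triangles and the median of all genes tested as a dotted line. GRPEL2 at 0.86 is the only red point, the 3 motor genes among the members (HSPA9 is not one) lie above 0 in both replicates, and TOMM20, TOMM6 and SAMM50 have replicates far apart.

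The import motor held the member that rose. GRPEL1 and GRPEL2 are homologs of bacterial GrpE that release ADP from HSPA9 so that the motor can turn over, and TIMM44 tethers HSPA9 to the TIM23 channel. Ribo-seq counts over the GRPEL2 CDS, normalised to CPM, were 42.8 and 37.7 CPM in control replicates 1 and 2, and 82.0 and 60.7 CPM in arsenite. Both arsenite libraries lay above both control libraries. With 2 libraries a group, such separation is a weak criterion that can easily arise without a change. Its share over all genes was not counted. Here and below it describes the libraries and is not a result about the members. GRPEL1, TIMM44, TOMM70A and TOMM5 also separated with arsenite higher. SAMM50, TIMM21, TIMM23, TIMM50, TOMM22 and TOMM40L separated with arsenite lower. GRPEL2 mRNA-seq counts were 127 and 106 CPM in control and 110.1 and 106 CPM in arsenite, and these overlapped. The GRPEL2 TE was 1.82-fold that of control relative to other mRNAs, a log2 change of 0.86 ± 0.17 (SE, n = 2 replicates, edgeR adjusted p = 0.0454), with 1.15 in replicate 1 and 0.70 in replicate 2. Tested on ribo-seq alone, the log2 ribosome occupancy change of GRPEL2 was 0.79 ± 0.22 and missed the threshold (edgeR adjusted p = 0.052). The occupancy change passed under 5 of 8 alternative settings that gave an adjusted p. The values rest on 74 and 290 CDS footprints in control and 77 and 198 in arsenite. The TE call is close to the threshold. It held under 4 of 11 alternative settings, whose adjusted p ranged from 0.0271 to 1.00 (1.00 without the replicate block) with log2 changes of 0.84 to 0.93. With any of the 4 mRNA-seq libraries left out, the log2 TE change was 0.80 to 1.00 and the call was lost. With any of the 4 ribo-seq libraries left out, it was 0.75 to 1.01 and the call was kept. Each of these fits leaves 1 library in a group.

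GRPEL1, its paralog, had a positive change that did not pass the test. Its normalised ribo-seq counts were 153 and 125 CPM in control and 268 and 162 CPM in arsenite, again without overlap, and its mRNA-seq counts were 122 and 106 against 129 and 104 CPM. The GRPEL1 log2 TE change was 0.54 ± 0.17 (SE, n = 2, edgeR adjusted p = 0.121), with 0.73 and 0.39 in replicates 1 and 2. TIMM44 had 57.2 and 80.7 ribo-seq counts in CPM in control and 92.7 and 99.6 in arsenite, which do not overlap, and a log2 TE change of 0.40 ± 0.17 (SE, n = 2, edgeR adjusted p = 0.22). These 3 motor genes were positive in both replicates, and 1 of the 3 passed. HSPA9 itself, which is outside the rule for members, was negative in both, at -0.36 and -0.38, with a log2 TE change of -0.37 ± 0.14 that did not pass (edgeR adjusted p = 0.182). PAM16, which with DNAJC19 regulates HSPA9 at the channel, had 1 to 5 CDS footprints in a library and was not tested for TE.

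**Figure D2:**
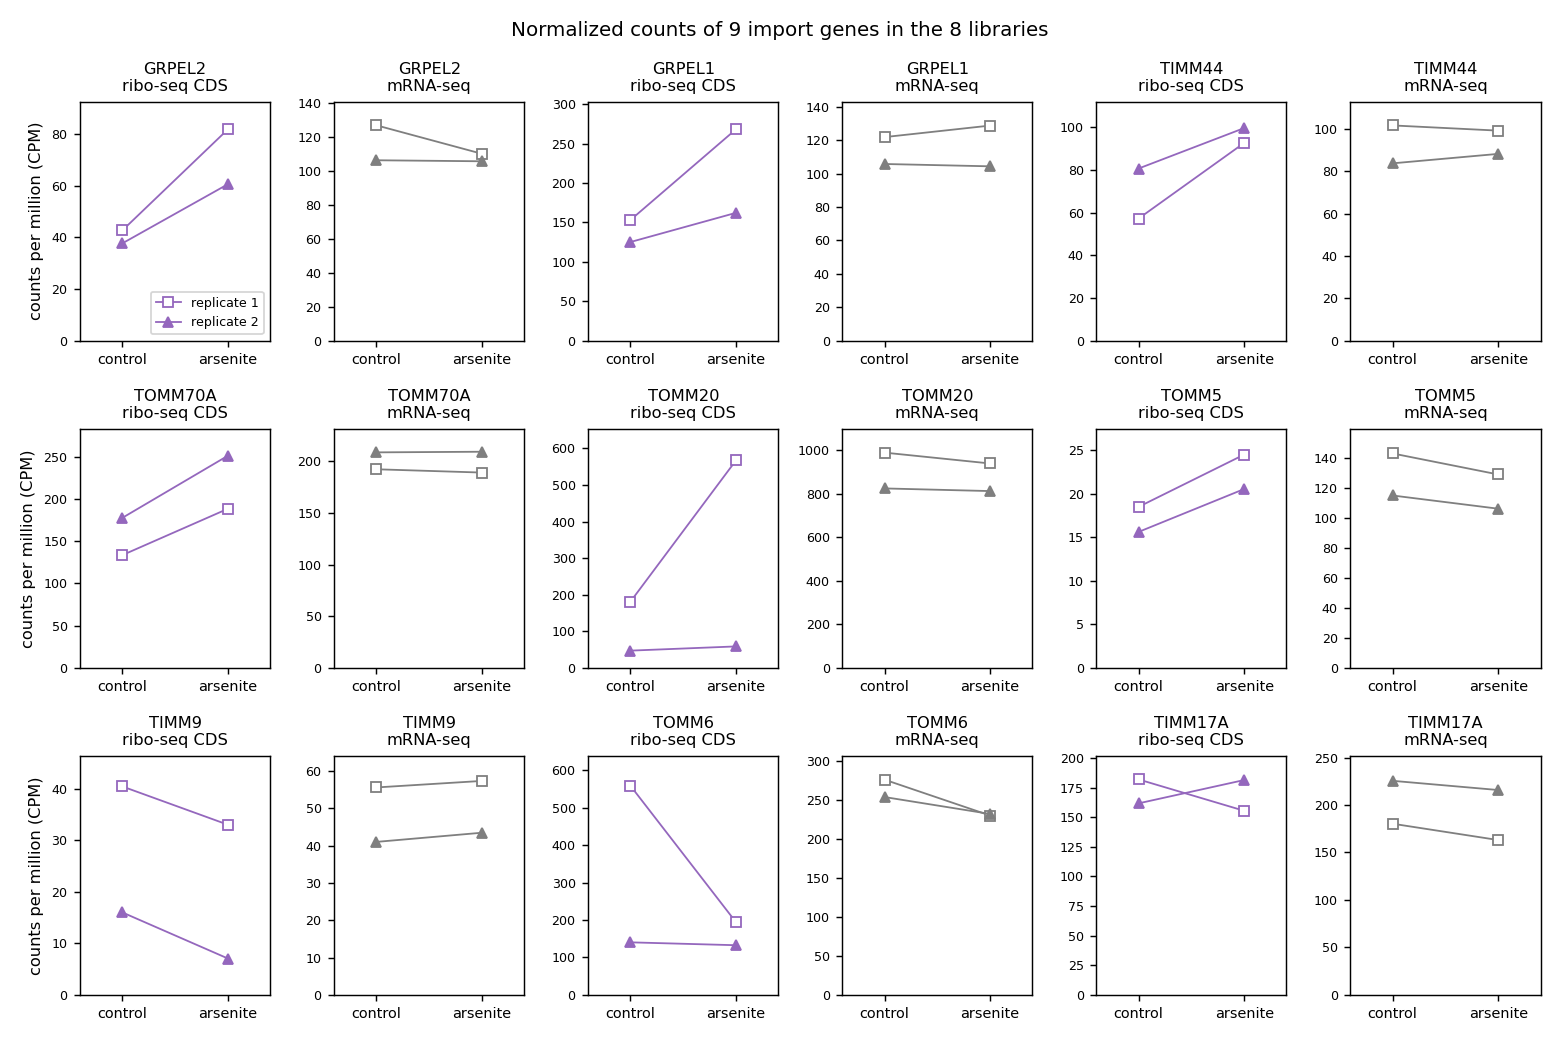
Normalised counts in CPM (y axes from 0, each panel with its own range) of 9 import genes in control and arsenite, for CDS ribo-seq (purple) and mRNA-seq (grey), with lines joining the libraries of a replicate (open squares, replicate 1; filled triangles, replicate 2). GRPEL2, GRPEL1, TIMM44, TOMM70A and TOMM5 have ribo-seq lines that climb in both replicates over nearly level mRNA-seq lines, whereas TOMM20 and TOMM6 move mainly in replicate 1 and TIMM17A crosses.

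The TOM complex was the role with the widest spread of TE changes, from -0.56 for TOMM6 to 1.07 for TOMM20, with a median of 0.08 over 9 members and 0 past the threshold. TOMM20 and TOMM22 are receptors for presequences, TOMM70A is the receptor for carrier precursors that come with cytosolic chaperones, TOMM40 forms the channel, TOMM5, TOMM6 and TOMM7 are small subunits around it, and TOMM34 is a cytosolic co-chaperone. TOMM20 ribo-seq counts were 181 and 46.7 CPM in control and 568 and 58.2 CPM in arsenite. The replicates of each treatment were further apart than control and arsenite in replicate 2, and the groups overlapped. The log2 TE change of TOMM20 was 1.07 ± 0.33 (SE, n = 2, edgeR adjusted p = 0.109), with 1.72 in replicate 1 and 0.34 in replicate 2. Left with the ribo-seq of 1 replicate, the fit gave 0.36 without either ribo-seq library of replicate 1 and 1.70 without either of replicate 2, and passed in the latter. Its log2 ribosome occupancy change, which leaves out mRNA-seq, was 1.01 ± 0.23 (SE, n = 2, edgeR adjusted p = 0.024), with 1.65 and 0.32 in replicates 1 and 2. TOMM20 was the 1 member of 34 that passed for occupancy, where 2.81% of 10291 genes did (150 genes or 1.46% higher and 139 genes or 1.35% lower). Reads that also mapped to another gene had been discarded by the authors, and 4.15% to 7.74% of the TOMM20 mRNA-seq reads lay in the CDS against 89.6% to 92.2% in the 3′ UTR, while the median member had 48.9% to 60.6% in the CDS. The TOMM20 occupancy call held under 6 of 9 alternative settings. It was lost without the replicate block, with an adjusted p of 1.00, with DESeq2 (0.0865) and with library totals (0.081).

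TOMM70A gave the closest replicates among the positive TE changes. Its ribo-seq counts were 134 and 178 CPM in control and 188 and 251 in arsenite, with no overlap, over mRNA-seq counts of 192 and 209 against 189 and 209 CPM. The log2 TE change was 0.51 ± 0.15 (SE, n = 2, edgeR adjusted p = 0.0922), with 0.52 and 0.50 in replicates 1 and 2, so that it missed the threshold, and it missed it under all 11 alternative settings. TOMM70A does not fall under the rule for named genes and was named after its values were seen. TOMM5 had 18.5 and 15.6 ribo-seq counts in CPM in control and 24.5 and 20.5 in arsenite, and a log2 TE change of 0.53 ± 0.20 (SE, n = 2, edgeR adjusted p = 0.183) with 0.56 and 0.52 in the replicates. TOMM7 had a log2 TE change of 0.43 ± 0.17 (edgeR adjusted p = 0.194).

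TOMM6 was the lowest of the TOM complex through replicate 1. It had 559 and 140.4 ribo-seq counts in CPM in control and 194 and 133 CPM in arsenite. The log2 TE change was -0.56 ± 0.35 (SE, n = 2, edgeR adjusted p = 0.39), at -1.26 in replicate 1 and 0.05 in replicate 2. TOMM40 and its paralog TOMM40L had changes smaller than their SE. TOMM40 ribo-seq counts were 75.1 and 167 CPM in control and 87.4 and 190.4 in arsenite, for a log2 TE change of 0.08 ± 0.15. TOMM40L rested on 22 and 98 footprints in control and 11 and 32 in arsenite, for a log2 TE change of -0.20 ± 0.26 (SE, n = 2). TOMM22 and TOMM34 had log2 TE changes of -0.27 and -0.03, and TOMM20L had at most 1 read in any library.

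Annotated starts of 4 mRNAs of this machinery resemble the 5′ terminal oligopyrimidine tract by which mTOR controls translation of ribosomal protein mRNAs. Of these, 3 encode TOM subunits, namely TOMM20, TOMM70A and TOMM7. Among the other TOM members tested, TOMM5 has no entry, and TOMM6, TOMM22, TOMM34, TOMM40 and TOMM40L have no such start. The windows below run from 15 bases before to 15 bases from the first transcribed base in RefSeq (GRCh38.p14), 5′ to 3′ on the gene's strand, with capitals for the unbroken run of C and T that begins with a C at that base. GRPEL2 and TOMM6 are shown for comparison as the member that rose in TE and the TOM subunit with the lowest TE change. Both were thus picked by their TE change, and a link between such starts and TE was not tested.
TOMM20: tggcgtgtgctcggcCTTTCTgtgttcctg
TOMM70A: cggtgacctctggccCTTTTCTgtcgtccg
TOMM7: ggcgcctgcgcacctCCTTTCCCTTTCgga
OXA1L: gcgcaaaagcaagtcCTCTTCCgggcaaaa
GRPEL2: catctcttcactcgcagcaagtgcgcgtgc
TOMM6: ccatgcgaagctttcCactatggcttccag
The windows are at chr1:235128823-235128852 on the minus strand for TOMM20, chr3:100401075-100401104 on the minus strand for TOMM70A (listed as TOMM70), chr7:22822835-22822864 on the minus strand for TOMM7, chr14:22766673-22766702 on the plus strand for OXA1L, chr5:149345484-149345513 on the plus strand for GRPEL2 and chr6:41787679-41787708 on the plus strand for TOMM6. A C at the start followed by 4 bases that are each C or T, read on the gene's strand only, was found in 4 of 31 tested members with an entry, in 7.88% of all genes tested for TE with an entry (674 of 8549) and in 4.07% of all 35116 starts. GRPEL1, TIMM8B and TOMM5 have no entry. Whether the 4 of 31 differ from the share over all genes was not tested. The log2 TE changes of the 4 were 1.07 for TOMM20, 0.51 for TOMM70A, 0.43 for TOMM7 and 0.15 for OXA1L. None of the 4 passed the TE test, and TOMM20 had 1.7 in replicate 1 and 0.3 in replicate 2. Over the tested genes with an entry, those with such a start had a median of -0.11 and the others a median of -0.0047. These are descriptions of the annotated starts, which need not be those used in HEK293T cells.

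SAM, the intermembrane space relay and the small TIM chaperones had log2 TE changes from -0.82 to 0.39, and 0 of their 11 members passed the test. SAMM50, the beta-barrel core of SAM, had 128 ribo-seq counts in CPM in both control replicates and 61.8 and 114.7 in arsenite, without overlap. Its log2 TE change was -0.47 ± 0.23 (SE, n = 2, edgeR adjusted p = 0.276), at -1.01 in replicate 1 and -0.23 in replicate 2. Its partners MTX1 and MTX2, the metaxins on the cytosolic side, had log2 TE changes of 0.09 ± 0.16 and 0.14 ± 0.18. MTX1 ribo-seq counts were 95.9 and 114 CPM in control against 112 and 112 in arsenite, and those of MTX2 were 143 and 54.6 against 122 and 59.5, so that both overlapped.

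In the relay, CHCHD4 forms disulfide bonds in small imported proteins and GFER reoxidises it. GFER had 20.2 and 24.9 ribo-seq counts in CPM in control and 12.8 and 20.2 in arsenite, and a log2 TE change of -0.34 ± 0.22 (SE, n = 2, edgeR adjusted p = 0.405). It rested on 12 and 66 footprints in arsenite. CHCHD4 had a log2 TE change of 0.17 ± 0.21.

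TIMM9, which forms the main small TIM chaperone with TIMM10, had the lowest TE change of all members. Its ribo-seq counts were 40.5 and 16.0 CPM in control and 33.0 and 7.05 in arsenite, on 70 and 123 CDS footprints in control and 31 and 23 in arsenite. The libraries of each replicate kept the same order but the groups overlapped. The log2 TE change was -0.82 ± 0.27 (SE, n = 2, edgeR adjusted p = 0.124), at -0.32 and -1.24 in replicates 1 and 2. TIMM10 differed in sign between the replicates, with -0.36 and 0.75, and so did TIMM8A, TIMM10B and TIMM13. TIMM8A, mutated in deafness-dystonia syndrome, and its paralog TIMM8B act beside TIMM13. TIMM8A had 115 and 38.0 ribo-seq counts in CPM in control and 81.0 and 38.3 in arsenite, and TIMM8B had 28.9 and 59.7 against 41.5 and 71.7. Their log2 TE changes were -0.07 ± 0.20 and 0.31 ± 0.18 (SE, n = 2), and neither passed the test.

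The inner membrane translocases had log2 TE changes from -0.31 to 0.20 over 6 members and 0 past the threshold. TIMM17A and TIMM17B are alternative partners of the TIMM23 channel, and TIMM17A is known as a short-lived subunit whose protein level falls when eIF2 is phosphorylated. TIMM17A ribo-seq counts were 182 and 162 CPM in control and 155 and 182 CPM in arsenite, on 146 to 1244 footprints. The control and arsenite libraries overlapped, and the log2 TE change was 0.11 ± 0.17 (SE, n = 2, edgeR adjusted p = 0.757), at -0.08 and 0.23 in the replicates. This value is relative to other mRNAs, so a fall in translation shared with the bulk does not appear in it. Protein was not measured in these libraries, and the known fall of TIMM17A protein was not tested. TIMM17B had 45.1 and 134 ribo-seq counts in CPM in control and 30.9 and 153 in arsenite, and a log2 TE change of 0.20 ± 0.20. TIMM21 had 17.9 and 20.2 ribo-seq counts in CPM in control and 9.59 and 17.8 in arsenite, on 9 and 58 footprints there, and a log2 TE change of -0.31 ± 0.27 (SE, n = 2, edgeR adjusted p = 0.539). TIMM23 had a log2 TE change of -0.31 ± 0.17, from the reads that set it apart from its near copy TIMM23B, which had no read in any library. TIMM50 and TIMM22 had -0.20 and 0.06.

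Both subunits of the processing peptidase were among the most deeply read members and lay near the bulk. PMPCA had 215 and 265 ribo-seq counts in CPM in control and 243 and 298 in arsenite, for a log2 TE change of 0.07 ± 0.15, and PMPCB had 254 and 191 against 250.3 and 177, for -0.10 ± 0.15 (SE, n = 2). Of the other members, OXA1L, which inserts proteins made in mitochondria into the inner membrane, had a log2 TE change of 0.15, the complex I assembly factor TIMMDC1 0.36 and the iron-sulfur co-chaperone HSCB -0.05.

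At the mRNA level, the changes of import genes were small. Of 35 members tested, PAM16 included, 0 rose and 3 fell, where 5.75% of 12600 genes passed (473 genes or 3.75% higher and 252 genes or 2.00% lower). The median log2 mRNA change was -0.06, between -0.49 and 0.12, and that of all genes tested was -0.01. Both replicates were negative in 16 members and positive in 3. Respiratory chain subunits had 21 lower and 0 higher of 80, with a median of -0.10, and mitochondrial ribosomal proteins 2 lower and 1 higher of 76, with a median of -0.06.

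The small TOM subunits TOMM7 and TOMM6 were 2 of the 3 that fell. TOMM7 mRNA-seq counts were 299 and 238 CPM in control and 261 and 206 in arsenite, a fall of 0.20 and 0.21 on the log2 scale within the replicates, and the fitted log2 change was -0.21 ± 0.05 (SE, n = 2, edgeR adjusted p = 0.00353). The pairs moved together, although the arsenite library of replicate 1 lay above the control library of replicate 2. TOMM6 mRNA-seq counts were 276 and 254 CPM in control and 230.0 and 232 CPM in arsenite, without overlap, and the log2 change was -0.18 ± 0.05 (SE, n = 2, edgeR adjusted p = 0.0196). TOMM7 and TOMM6 each passed under 6 of 9 alternative settings, and neither passed with DESeq2, with CDS reads alone or without the replicate block. Their ribosome occupancy did not pass the test, with log2 changes of 0.22 for TOMM7 and -0.78 for TOMM6. The occupancy change of TOMM6 passed under 4 of 9 alternative settings. In the main fit it was -1.52 in replicate 1 and -0.08 in replicate 2.

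PAM16 was the third. Its mRNA-seq counts were 46 and 147 in control and 24 and 127 in arsenite, or 11.9 and 7.33 CPM against 6.20 and 5.67, and the log2 change was -0.49 ± 0.16 (SE, n = 2, edgeR adjusted p = 0.0474). All but 2 of these reads lay in the 5′ leader, 46, 24, 146 and 126 of them, and the readthrough gene CORO7-PAM16, which contains the PAM16 CDS, had no read in any library after shared reads were discarded. The PAM16 values are therefore those of its leader. The call held under 1 of 7 alternative settings that gave an adjusted p, which ranged from 0.0372 to 1.00 and was 1.00 without the replicate block.

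**Figure D3:**
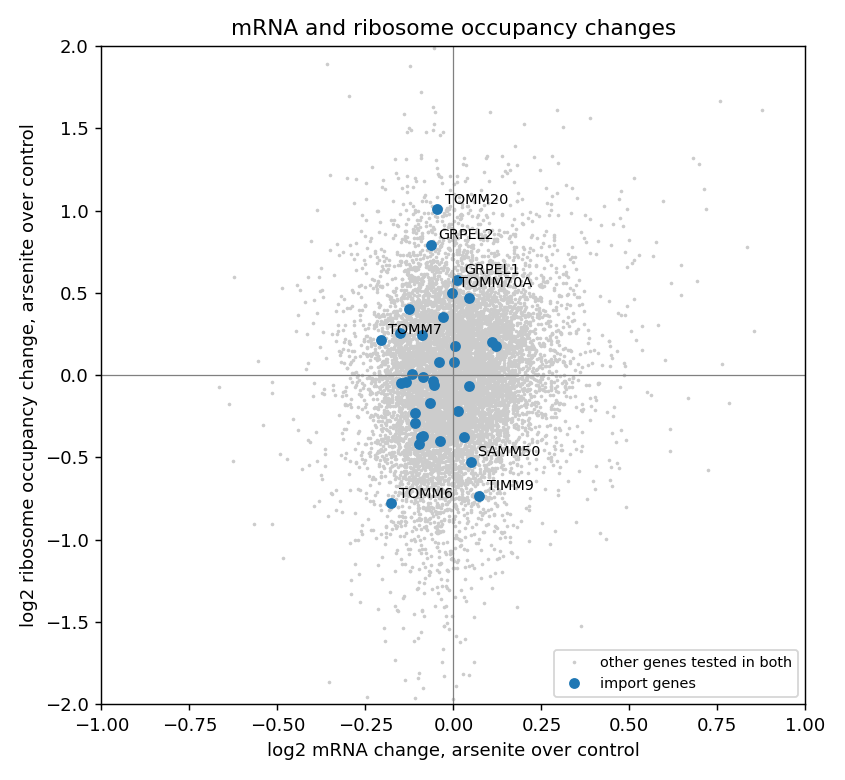
Log2 change in mRNA level (x axis) against log2 change in ribosome occupancy (y axis), arsenite over control, for the 34 import genes (blue) and the other genes tested in both (grey), of which 15 lie outside the axes. The import genes span -0.21 to 0.12 in mRNA and -0.78 to 1.01 in occupancy.

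In control cells, TE was compared with that of other genes from CDS reads in both assays, so that CDS length is the same on both sides. TIMM8A was above the bulk and TOMM5 below it. Of the 34 members, 1 was higher and 1 lower, where 22.0% of 10611 genes passed (890 genes or 8.39% higher and 1446 genes or 13.6% lower). The median log2 TE of the members was 0.22, with 0.33 in replicate 1 and -0.0047 in replicate 2, and that of all genes was 0.01. Respiratory chain subunits had 9 higher and 1 lower of 78, with a median of 0.31. With mRNA-seq reads of the whole transcript, 9 members passed, where 34.1% of 10644 genes did, and the members' median was -0.04.

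TIMM8A had 199 and 292 CDS footprints on 117 and 371 CDS mRNA-seq reads in control, a log2 TE of 1.07 ± 0.35 (SE, n = 2, edgeR adjusted p = 0.0408), with 1.68 in replicate 1 and 0.50 in replicate 2. Its paralog TIMM8B had 50 and 459 footprints on 163 and 1329 reads, for a log2 TE of -0.73 ± 0.30 (edgeR adjusted p = 0.0973) that missed the threshold, with -0.78 and -0.69. Neither replicate of TIMM8B reached those of TIMM8A. TOMM5 had 32 and 120 footprints on 121 and 483 reads, for a log2 TE of -1.09 ± 0.32 (SE, n = 2, edgeR adjusted p = 0.0291), at -0.99 and -1.16. TIMM8A passed under 5 of 9 alternative settings, with log2 TE from 0.42 to 1.27, and TOMM5 under 7 of 9, from -2.48 to -1.03. Without the replicate block their adjusted p was 0.19 and 0.125.

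In control, the ± SE ranges of the other paralog pairs overlapped. GRPEL1 and GRPEL2 had log2 TE of 0.70 ± 0.29 and 0.38 ± 0.33, TIMM17A and TIMM17B of 0.78 ± 0.31 and 0.25 ± 0.31, MTX1 and MTX2 of 0.37 ± 0.30 and 0.04 ± 0.35, PMPCA and PMPCB of 0.69 ± 0.30 and 0.11 ± 0.30, and TOMM40 and TOMM40L of -0.40 ± 0.31 and -0.58 ± 0.35. None of these 10 genes passed the test, and differences between paralogs were not tested.

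**Figure D4:**
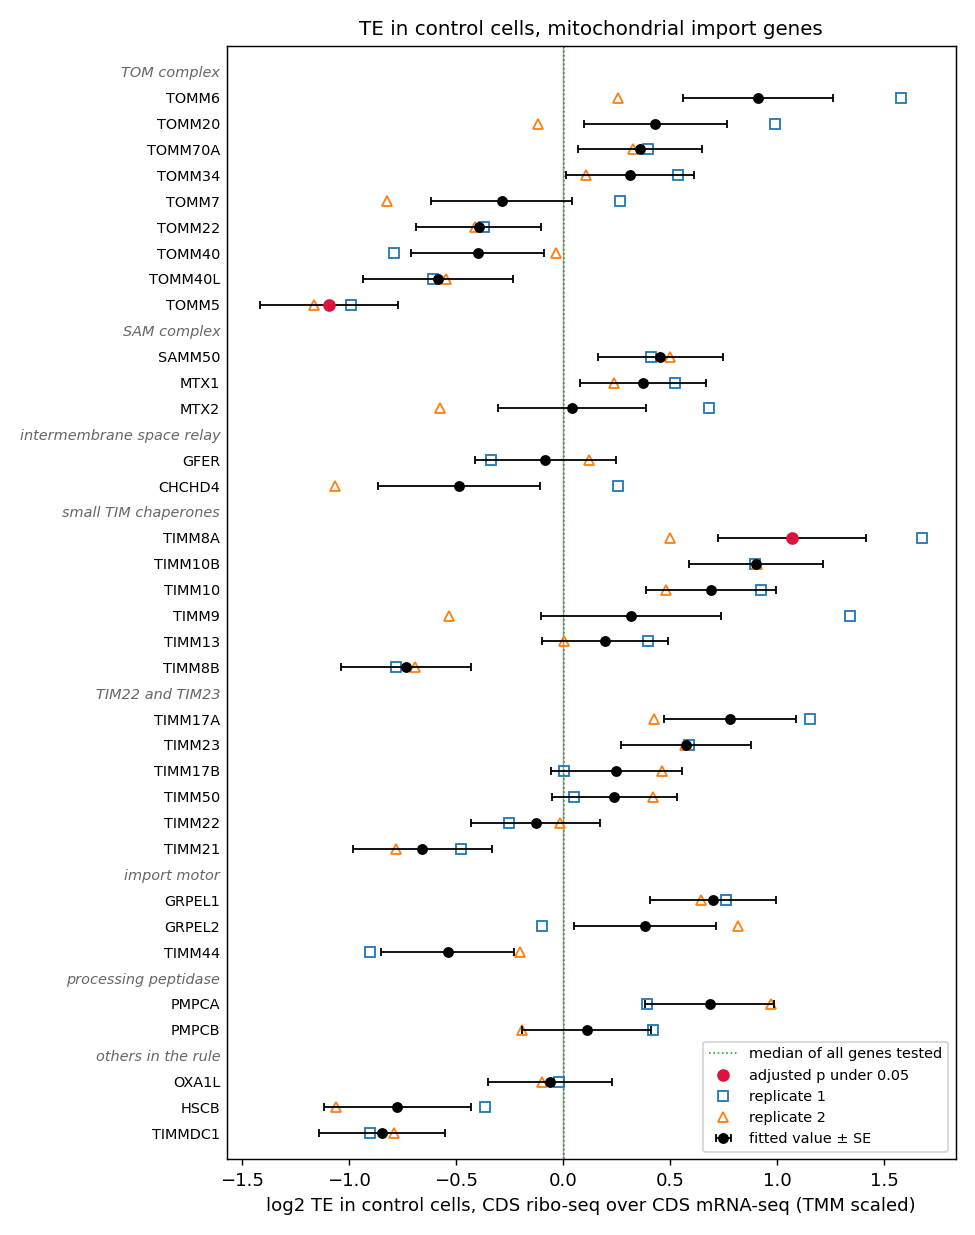
Log2 TE in control cells (x axis, CDS ribo-seq over CDS mRNA-seq, relative to the bulk) of the 34 import genes, with the fitted value ± SE as filled points, replicate 1 as squares and replicate 2 as triangles. TIMM8A at 1.07 and TOMM5 at -1.09 are the red points. The replicates of 8 members lie on opposite sides of 0, TIMM9, MTX2, CHCHD4, TOMM20 and TOMM7 among them.

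Footprints in 5′ leaders, where upstream open reading frames can take up ribosomes, were few. Over the 34 members they made up 29 of 6526 footprints in control and 13 of 3598 in arsenite in replicate 1, and 219 of 23162 and 202 of 11029 in replicate 2. As a share, replicate 2 went from 0.946% (95% Wilson interval 0.829% to 1.08%) to 1.83% (1.60% to 2.10%), and replicate 1 from 0.444% (0.310% to 0.637%) to 0.361% (0.211% to 0.617%). All genes together went from 0.795% to 1.52% in replicate 2 and from 0.392% to 0.490% in replicate 1. Intervals cover counting error only.

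TOMM70A held 158 of the leader footprints, more than any other member, and 16 members had none. Its leader share was 5.33% and 5.46% in control and 3.28% and 6.78% in arsenite. TIMM9 had leader shares of 11.1% and 16.1% in control and 8.11% and 43.2% in arsenite, where the last rests on 19 of 44 footprints (29.7% to 57.8%). TIMMDC1 had 1.41% and 3.90% in control and 0.917% and 13.0% in arsenite. For these genes and TOMM20, the only members with a mean of at least 10 leader footprints, the change of leader against CDS was tested, and 0 of 4 passed, with edgeR adjusted p of 0.997 for each, where 0.00% of 647 genes passed and 2 had an unadjusted p under 0.05. In 3 of the 4 the replicates differed in sign, at -0.28 and 2.06 for TIMM9, -0.36 and 1.85 for TIMMDC1 and -0.67 and 0.34 for TOMM70A. This model had no region by replicate term, so replicate differences in leader share stayed in its residual spread. It therefore cannot decide whether the share changed within replicates.

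The chaperones, proteases and cristae proteins that act with this machinery outside the rule for members gave a comparison within the pathway. Of 25 such genes, 23 were tested for TE and 0 passed in either direction, with 7 at an unadjusted p under 0.05, where 21.1% of all genes tested were, and 0 by DESeq2, adjusted or not. Their median log2 TE change was -0.27, with both replicates negative in 12 and positive in 7. No test compared these genes with the members. The mRNA of HSPA9, whose TE is given above with the motor, rose by 0.22 ± 0.05 (SE, n = 2, edgeR adjusted p = 0.000787). AIFM1, the partner of CHCHD4, rose in mRNA by 0.17 ± 0.05 (edgeR adjusted p = 0.0271), and DNAJC19, the partner of PAM16, fell by 0.24 (edgeR adjusted p = 0.0389), which makes 2 higher and 1 lower of 25, where DESeq2 called 1 higher and 0 lower. Over all genes tested for mRNA, 3.75% were higher and 2.00% lower. In control, HSPE1, APOOL, XPNPEP3 and HSPA9 had a higher TE than the bulk, with log2 values of 1.15 to 1.36, or 4 of 24. Over all genes tested for control TE, 8.39% were higher and 13.6% lower. Without the replicate block 0 of these 24 passed in either direction, and DESeq2 called 5 higher and 0 lower. DNAJC19 had a lower TE than the bulk at -1.40, with 0.02 in replicate 1 and -1.96 in replicate 2.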

How the data were processed

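The authors trimmed adapters with Cutadapt, removed spike-in and rRNA reads, aligned the rest with Bowtie 1.0.0 to RefSeq transcripts, kept only reads that fell on a single gene, and deposited raw counts of each transcript and of its leader, CDS and 3′ UTR. Runs of replicate 2 had been added together by them. Spike-in values were not used here. Transcript lengths were not used, so levels of different genes are not compared.

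Changes were tested with edgeR 4.0.16 (quasi-likelihood, TMM, R 4.3.3) where the mean count reached 10 in each assay used. The replicate was a block in each model of mRNA, occupancy and TE, per assay for TE change. The leader model had a term for each library but none for region by replicate. The SE is the absolute log2 change over the root of its F statistic. The TE model fits 1 spread per gene for both assays, so its SE can lie below that of ribo-seq alone. For GRPEL2 the SE was 0.17 for TE and 0.22 for occupancy. The SE and p-values for TE may therefore understate the spread of ribo-seq. CPM use TMM-scaled totals of an assay. For values of a replicate, 0.5 was the prior count. Replicate numbers pair the samples because the study processed and normalised each replicate separately. Libraries of the same number deviated together (r = 0.689 for the 10291 ribo-seq genes, r = 0.71 for the 12600 mRNA-seq genes). With 2 libraries a group, no exact permutation test can reach 0.05, and p-values rest on spread shared across genes.

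Values are given in each library for members past the threshold in any test, for the 4 largest rises and 4 largest falls in TE of the same sign in both replicates, and for the paralog pairs. TIMM44, like TOMM70A, falls outside this rule, and its values are given beside those of the other motor genes. Members and lists were chosen with earlier results of these data known. Tests were run on counts simulated from their own fitted models, with 1 spread per gene. Such counts cannot show whether a spread shared by both assays holds in the data. Alternatives were DESeq2 1.42.0, other scalings, filters, blocks, transcripts and read regions, a prior count of 2, and leaving out libraries. Figures were drawn with matplotlib 3.10.9.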

Additional observations from a re-analysis of the deposited data

Results flagged for a closer look

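Footprints in the 3′ UTR entered none of the tests, and in replicate 2 their share among the 34 import genes was above the control interval. It was 0.510% (118 of 23162 footprints, 95% Wilson interval 0.426% to 0.610%) in control and 1.94% (214 of 11029, 1.70% to 2.21%) in arsenite. In replicate 1 it was 0.659% (0.490% to 0.886%) in control and 0.695% (0.471% to 1.02%) in arsenite, which overlap. Over all genes the share went from 0.204% to 0.755% in replicate 2 and from 0.102% to 0.201% in replicate 1. TOMM7 alone gave 134 of the 400 3′ UTR footprints of the members, at 7.47% to 10.3% of its footprints in each of the 4 libraries, and without it the members went from 0.293% to 1.64% in replicate 2. Replicate 1 without TOMM7 had 0.210% in control (0.123% to 0.359%) and 0.350% in arsenite (0.201% to 0.612%), and these intervals overlap.

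By gene, the same separation in replicate 2 appeared in 4 members with at least 20 such footprints in arsenite. These members were picked by that separation and that minimum, and the share of all genes that meet the same rule was not counted. TIMM13 (0.51% to 4.0%, 13 footprints in arsenite) and TIMM10B (1.41% to 9.17%, 10 footprints) also separated but fell under the minimum. TOMM22 went from 0.680% (0.265% to 1.74%) to 11.6% (8.16% to 16.3%), on 28 of 241 footprints. TOMM20 went from 2.00% (1.01% to 3.89%) to 9.28% (6.21% to 13.7%). TOMM6 went from 0.550% (0.252% to 1.20%) to 4.94% (3.31% to 7.30%). TIMM17A went from 0.321% (0.125% to 0.821%) to 4.05% (2.76% to 5.91%), and in replicate 1 it had 0 of 315 footprints in control, which allows a share of up to 0.952%, and 0 of 146 in arsenite, which allows up to 2.05%. In replicate 1, TOMM22 went from 0.535% to 1.47% (1 of 187 and 1 of 68 footprints), TOMM6 from 0.103% to 0.546% and TOMM20 from 0.635% to 0.187%, each with overlapping intervals. The intervals compare libraries and cover counting error only, and no test across replicates was made of these shares.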

How the results depend on the processing

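The median log2 TE change of the members lay between 0.06 and 0.12 under all 11 alternatives other than leaving out libraries, and between -0.076 and 0.127 when each library or replicate was left out, with the negative values without a ribo-seq library of replicate 2. Beside the 205 genes and 1 member (GRPEL2) called for TE, there were 120 and 0 with DESeq2, 130 and 0 with a mean of at least 50 counts, 87 and 0 with CDS reads of mRNA-seq, 433 and 1 without a filter, and 0 members with upper-quartile scaling (139 genes) and with ribo-seq reads of the transcript (149 genes). With each library left out, 8 to 2393 genes and 0 to 9 members were called: 8 or 9 genes and 0 members without an mRNA-seq library, and 1595 to 2393 genes and 8 or 9 members without a ribo-seq library. In the latter fits the ribo-seq change rests on 1 replicate, and the residual spread comes from mRNA-seq alone and is assumed to hold for ribo-seq.

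Without the replicate block, edgeR called 0 genes and 0 members for TE, mRNA and occupancy (148, 28 and 150 genes at an unadjusted p under 0.05), and 377 genes and 0 members for control TE. An additive block shared by both assays called 0 genes and 0 members for TE (407 unadjusted).

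For occupancy, beside 289 genes and 1 member, there were 54 and 0 with DESeq2, 71 and 0 with library totals, 556 and 4 with RLE scaling, 477 and 3 with upper-quartile scaling, 540 and 3 without a filter, 578 and 4 with a mean of at least 50 counts, and 344 and 2 with ribo-seq reads of the transcript. For mRNA, beside 725 genes and 3 members, there were 84 and 0 with DESeq2, where the members' median was -0.043, and 240 and 0 with CDS reads, and the median was -0.043 to -0.064 with each replicate left out.

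For TE in control, beside 2336 genes and 2 members, there were 1739 and 1 with DESeq2, 2804 and 4 with library totals, 3431 and 5 without a filter, 1544 and 2 with a mean of at least 50 counts, and 3629 and 9 with mRNA-seq reads of the transcript. Library totals shift the median of all genes by -0.27 and that of the members to -0.061, and mRNA-seq reads of the transcript put the members' median at -0.037. With those reads GRPEL2 and TOMM20 reversed, to -1.10 and -2.87, since their mRNA-seq reads outside the CDS then count. A region by replicate term, added after seeing the data, called 11 genes and 0 members for the leader share, against 0 genes. With it, 154 of 647 genes (23.8%) and 1 of 4 members had an unadjusted p under 0.05, against 2 genes and 0 members. The cause of the other differences was not tested. The depth of replicate 1 and of arsenite ribo-seq limits TIMM9, TIMM10B, TIMM21, CHCHD4, GFER, TOMM5, TOMM40L and HSCB most, with under 100 CDS footprints in each arsenite library.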
